A study of Mus musculus with 6 samples.

Results

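The 10 genes described here carry the signal of interleukin 2 and related cytokines inside a T cell, and the feedback on it: the kinases Jak1 and Jak3, the transcription factors Stat3, Stat5a and Stat5b, the feedback inhibitors Cish, Socs1, Socs2 and Socs3, and the kinase Pim1. They were chosen by name, and all 10 were found among 25654 genes with a value. In aged CD8 T cells 3 of the 4 feedback inhibitors rose (Cish, Socs1 and Socs3, 1.36-fold to 1.56-fold) and Jak3 fell, in a row whose reads may be shared with a neighbouring gene. Socs3 and Jak3 each lost the call when 1 particular library was left out. Over all tested genes 28.7% were called, 16.2% higher and 12.5% lower. The Stat3, Stat5a, Stat5b, Socs2 and Pim1 messages were not called, and Jak1 missed the threshold in the main test.

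Cytotoxic (CD8) T cells were taken from spleens of aged (around 65 weeks) and young (6 weeks) WT female C57BL/6 mice. Cells of both ages spent 2 days on immobilized antibodies, one against TCR-β at 3 µg/ml and one against CD28 at 1 µg/ml, in medium that held 10 ng/ml of IL-2 (interleukin 2), and 5 further days in IL-2 of that strength on a fresh plate. Each age has 3 libraries, numbered as biological replicates. Since no source used here ties a library to a mouse, the p-values below measure the spread between libraries, which may be partly technical. In RNA of whole cultures fewer cells of a type and less RNA per cell cannot be told apart.

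Cytokines of the common gamma chain family, interleukin 2 among them, bind receptors that have no enzyme of their own and lean on the kinases JAK1 and JAK3, held at their inner ends. Downstream of interleukin 2 the kinases phosphorylate STAT5 and, to a lesser degree, STAT3, which then enter the nucleus and bind DNA at sites with the core TTCNNNGAA. Among the genes that STAT5 switches on are Cish, Socs1, Socs2 and Pim1. The CIS and SOCS proteins bind the activated receptors, kinases or their docking sites and shut the signal off, so that their messages are used as a readout of recent signalling as well as being its brake.

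The promoter windows of the feedback genes that rose are shown because Cish is a textbook STAT5 target with clustered STAT sites. Each window runs from 250 bases before to 50 bases after a start site given by RefSeq (GRCm38.p6), read 5′ to 3′ on the gene's strand, and matches to TTCNNNGAA are in capitals. The motif is its own reverse complement, so 1 scan covers both strands. The window of Cish is chr9:107296409-107296708 on the plus strand, that of Socs3 is chr11:117969317-117969616 on the minus strand and that of Socs1 is chr16:10785487-10785786 on the minus strand.
Cish: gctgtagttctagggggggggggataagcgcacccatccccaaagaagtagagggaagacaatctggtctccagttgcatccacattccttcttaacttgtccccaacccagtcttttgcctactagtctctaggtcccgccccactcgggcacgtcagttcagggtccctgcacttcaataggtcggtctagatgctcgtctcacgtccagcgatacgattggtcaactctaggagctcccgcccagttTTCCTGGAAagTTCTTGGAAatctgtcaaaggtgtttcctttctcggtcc
Socs3: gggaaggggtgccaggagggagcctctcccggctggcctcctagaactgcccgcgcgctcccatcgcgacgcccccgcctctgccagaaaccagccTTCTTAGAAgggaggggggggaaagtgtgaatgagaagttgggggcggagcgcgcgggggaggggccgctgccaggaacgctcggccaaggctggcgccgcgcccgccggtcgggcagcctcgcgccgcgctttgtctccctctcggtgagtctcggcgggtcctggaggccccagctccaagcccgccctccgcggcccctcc
Socs1: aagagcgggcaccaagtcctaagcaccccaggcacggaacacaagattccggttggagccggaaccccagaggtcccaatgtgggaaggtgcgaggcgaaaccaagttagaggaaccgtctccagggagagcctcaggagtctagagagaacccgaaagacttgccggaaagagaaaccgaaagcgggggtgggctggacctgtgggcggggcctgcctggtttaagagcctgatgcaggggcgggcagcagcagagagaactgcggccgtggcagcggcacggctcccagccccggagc
The Cish window held 2 matches, TTCCTGGAA and TTCTTGGAA, that start at positions 1 and 12, counted from 1 at the start site, and do not overlap. Socs3 had 1, TTCTTAGAA, at position -154 from the RefSeq start site, and the Socs1 window had none. In GENCODE M21 Cish begins at 107296026 and Socs3 at 117970047, upstream of their windows. Both windows thus lie inside the genes as annotated there, and the positions given hold for the RefSeq start sites only. Of 32851 windows of this length in the table, 8.3% held at least 1 match and 0.457% held at least 2. Of the 10674 windows of genes tested below, 7.03% held at least 1 and 0.403% at least 2. Windows were found for 9 of the 10 genes, 12 in all, and 2 genes had a match: the letters were not in the windows of Jak1, Jak3, Stat3, Stat5a, Stat5b and Pim1. A match is a description of the sequence and not a measured site.

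Levels are given in CPM, reads of a gene per 1000000 reads of the library. The libraries came from a kit that reads the 3' end of each transcript, so 1 transcript gives 1 read whatever its length, and CPM values of different genes can be set side by side without dividing by length. Recovered read totals were 1952552 to 2608553 in aged and 2300219 to 2785915 in young libraries, and a count of 0 allows up to 1.08 to 1.54 CPM in a library. A gene was called at a limma adjusted p under 0.05 over the 10511 genes whose mean reached 1 CPM. Differences on the log2 scale are aged minus young in log2(CPM + 1), with their standard error. All 10 genes passed the filter. Of the 10, 4 were called (3 higher, 1 lower), where 28.7% of all tested genes were called, 16.2% higher and 12.5% lower. That split, 1701 higher and 1313 lower, was 1306 higher and 1689 lower with upper-quartile scaling. The median log2 difference of the 10 was 0.05, against 0.03 over all tested genes, and the median size of the difference without its sign was 0.21, against 0.29.

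The labelled cell type was checked against its markers. Cd8a was at 244 to 344 CPM in aged and 266 to 276 CPM in young libraries, and Cd4 was at or below 0.384 CPM in all 6. All 9 listed T cell and CD8 genes were tested. Of them 5 fell in aged cells and 0 rose, where 12.5% of all tested genes fell and 16.2% rose. Their summed levels were 2123 to 2299 CPM in aged and 2681 to 2808 CPM in young libraries. Of the lists of other cells, B cell genes summed to 0 to 1.53 CPM in aged and 2.51 to 11.1 CPM in young libraries, with 5 of 8 at 0 in every library, Cd79a and Ms4a1 among them. Their most abundant gene was Cd79b, at a mean of 0.982 CPM in aged and 6.34 CPM in young cells. Erythroid and platelet genes summed to 1.15 to 4.71 CPM in aged and 9.999 to 22.3 CPM in young libraries, with 4 of 8 at 0 throughout. The most abundant of them over the 6 libraries was Hbb-bt, at 0 CPM in every aged library and a mean of 7.97 CPM in young cells. Myeloid genes summed to 12.3 to 23.5 CPM in aged and 22.6 to 27.8 CPM in young libraries, with 4 of 11 at 0 throughout, Lyz2 and Adgre1 among them, and Cd68 the most abundant. Natural killer cell genes summed to 65.6 to 110 CPM in aged and 79.6 to 81.5 CPM in young libraries, with Fcer1g, which was called higher, the most abundant and Ncr1 at or below 0.384 CPM. In the CD4 T cell list Il2ra, which activated CD8 T cells share, was the most abundant, and the next was Zbtb7b at 12.7 CPM in aged and 20.8 CPM in young cells. The part of these shifts in the results below was not tested.

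**Figure D1:**
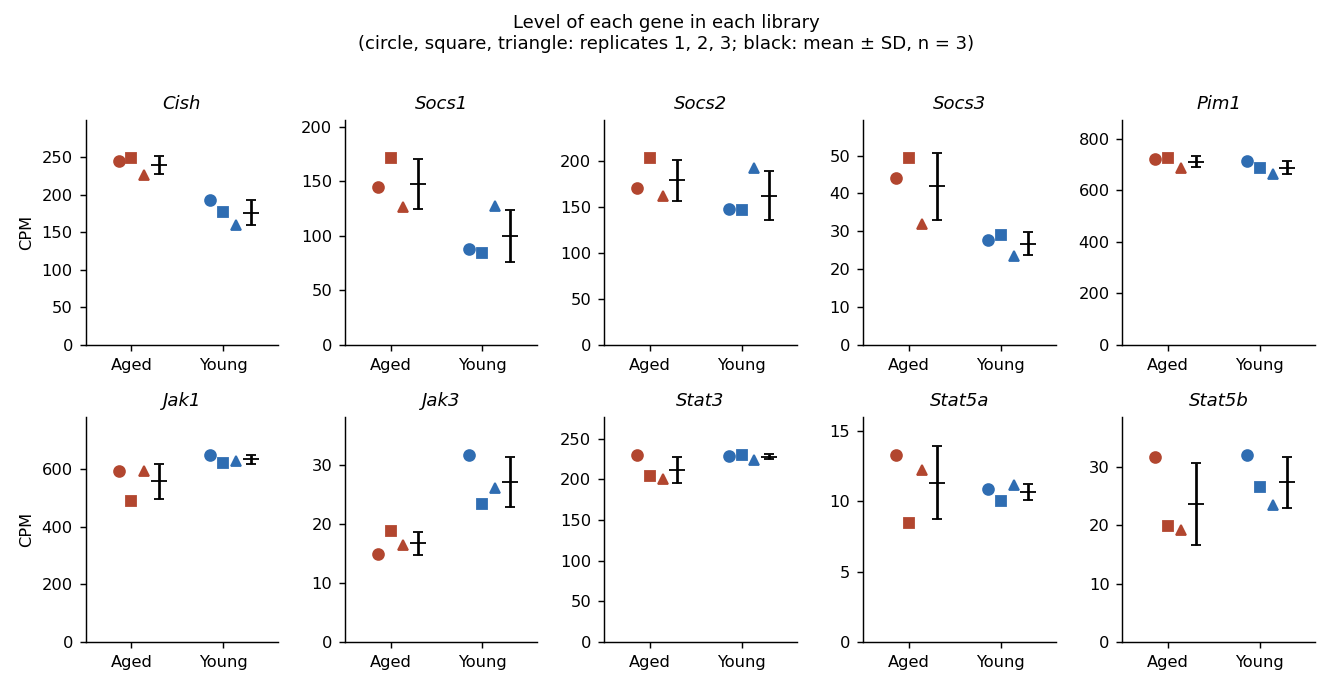
Level of each of the 10 genes in CPM (vertical axes from 0) in the 3 aged and 3 young libraries; points are libraries and black bars are mean ± SD. The groups do not overlap for Cish, Socs3, Jak1 and Jak3, while Young replicate 3 sits with the aged libraries for Socs1 and Socs2.

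Jak1 (ENSMUSG00000028530, chromosome 4, 101152367 to 101265282, GRCm38), the kinase shared by many cytokine receptors, was among the most abundant messages of the set. It was at 593, 488 and 592 CPM in Aged replicates 1, 2 and 3, against 650, 622 and 627 CPM in Young replicates 1, 2 and 3. The groups did not overlap, as for 4 of the 10 genes and for 40.9% of all tested genes. The log2 difference was -0.19 ± 0.07 (95% interval -0.34 to -0.04), with a limma adjusted p of 0.0518, so it was not called. Aged replicate 2 lay lowest, and without it the difference was -0.09 (limma adjusted p = 0.317). Jak1 was called lower with other scalings: the value was -0.24 with TMM factors (adjusted p = 0.0133, limma) and -0.24 with edgeR's quasi-likelihood test (adjusted p = 0.014).

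Jak3 (ENSMUSG00000031805, chromosome 8, 71676296 to 71690575), the kinase that binds the gamma chain alone, was listed at 14.9, 18.8 and 16.5 CPM in Aged replicates 1, 2 and 3, against 31.7, 23.3 and 26.1 CPM in Young replicates 1, 2 and 3. All aged libraries lay below all young ones. The log2 difference was -0.66 ± 0.18 (limma adjusted p = 0.00947), a ratio of 0.617. Without Young replicate 1, the highest library, it was -0.54 and not called (limma adjusted p = 0.0715).

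The level of Jak3 itself is uncertain, because its longest annotated transcript ends at the same base, 71690575, as Insl3, the gene of a hormone of testicular Leydig cells, on the same strand. The 2 genes share 404 bases of exon, of 623 in Insl3, and a shorter Jak3 transcript ends at 71688556. Insl3, named here after its values were seen, was listed at 69.7, 67.9 and 64.0 CPM in Aged replicates 1, 2 and 3, against 89.1, 108 and 88.4 CPM in Young replicates 1, 2 and 3. That is 4.06 ± 0.560 times the listed Jak3 level in aged and 3.61 ± 0.940 times in young libraries (SD, n = 3 each). Reads of the shared end cannot be assigned to either gene from these files.

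Summed over both rows, as an alternative added after the data were seen, the locus was at 84.5, 86.6 and 80.5 CPM in Aged replicates 1, 2 and 3, against 121, 132 and 115 CPM in Young replicates 1, 2 and 3. All aged libraries again lay below all young ones, with a mean of 83.9 ± 3.13 CPM in aged and 122 ± 8.71 CPM in young cells (SD, n = 3 each). The log2 difference of the sum was -0.54 ± 0.09 (95% interval -0.73 to -0.34; limma adjusted p = 0.000198). It was called lower under all 17 alternatives, the 6 that leave out a library among them, with values of -0.62 to -0.48.

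**Figure D2:**
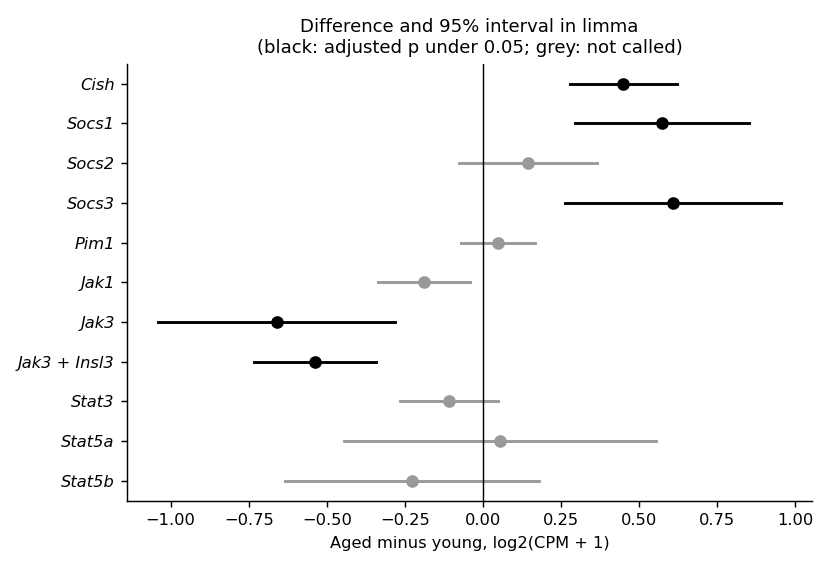
Difference between aged and young cells for each of the 10 genes and for the summed Jak3 and Insl3 rows, on the log2(CPM + 1) scale; points are limma estimates and lines 95% intervals. Cish, Socs1 and Socs3 lie above 0 at 0.45 to 0.61, and Jak3 lies below at -0.66.

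The other 2 kinases of the family were less abundant than Jak1. Jak2, which serves receptors such as those for interferon gamma, was at 27.7, 21.1 and 32.5 CPM in Aged replicates 1, 2 and 3, against 35.6, 43.4 and 38.0 CPM in Young replicates 1, 2 and 3. Its log2 difference of -0.53 was called (limma adjusted p = 0.0201), but not without Aged replicate 2 (-0.37, adjusted p = 0.109), without Young replicate 2 (-0.45, adjusted p = 0.0994) or with DESeq2 (adjusted p = 0.0508). Tyk2, used by receptors for interferons and interleukin 12, had a difference of -0.14 and was not called (limma adjusted p = 0.607). Jak1 made up 89.5 ± 0.929% of the summed CPM of the 4 JAK genes in aged and 87.6 ± 0.243% in young cells (SD, n = 3 each), with Insl3 reads left out.

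Of the STAT factors, Stat3 (ENSMUSG00000004040, chromosome 11, 100885098 to 100939540) was by far the most abundant of the 3 described here. It was at 230, 204 and 200 CPM in Aged replicates 1, 2 and 3, against 229, 230 and 224 CPM in Young replicates 1, 2 and 3. The groups overlapped through Aged replicate 1. The log2 difference was -0.11 ± 0.08, with a 95% interval of -0.27 to 0.05 (limma adjusted p = 0.315), and no alternative called it.

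Stat5b (ENSMUSG00000020919, chromosome 11, 100780731 to 100850724) was at 31.8, 19.9 and 19.3 CPM in Aged replicates 1, 2 and 3, against 32.2, 26.6 and 23.4 CPM in Young replicates 1, 2 and 3. Aged replicate 1 sat among the young libraries. Its log2 difference was -0.23 (limma adjusted p = 0.423). Leaving out 1 library moved it to -0.45 without Aged replicate 1 (limma adjusted p = 0.0971), -0.13 without Aged replicate 2, -0.11 without Aged replicate 3 and -0.11 without Young replicate 1, and Stat5b was not called in any of these. Stat5a (ENSMUSG00000004043, chromosome 11, 100859351 to 100885169) was at 13.3, 8.43 and 12.2 CPM in Aged replicates 1, 2 and 3, against 10.9, 10.1 and 11.1 CPM in Young replicates 1, 2 and 3. These were 22 to 29 reads in a library, the lowest of the 10 genes. Its 95% interval, -0.44 to 0.55 on the log2 scale, leaves room for a change of either sign (0.06; limma adjusted p = 0.898), and the sign turned with upper-quartile scaling, with limma-voom and without Aged replicate 1 or 3.

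Together the STAT5 messages summed to 45.1, 28.4 and 31.5 CPM in Aged replicates 1, 2 and 3, against 43.0, 36.6 and 34.6 CPM in Young replicates 1, 2 and 3, so the groups overlapped. Stat3 was 6.22 ± 1.05 times as abundant as this sum in aged and 6.03 ± 0.618 times in young cells, in CPM (SD, n = 3 each). The Stat3, Stat5a and Stat5b genes lie side by side on chromosome 11, and exons of Stat3 and Stat5a, which run towards each other, overlap by 72 bases on opposite strands.

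Of the other STAT genes, Stat4, the factor of interleukin 12 signalling, was 27.3 ± 2.84 CPM in aged and 53.6 ± 2.57 CPM in young cells (-0.95; limma adjusted p = 2.66e-05; SD, n = 3 each). Stat2, a factor of type I interferon signalling, had a log2 difference of -0.76 (limma adjusted p = 0.0158), which was not called with DESeq2 (adjusted p = 0.0637), without Aged replicate 2 (-0.63, adjusted p = 0.0648) or without Young replicate 2 (-0.70, adjusted p = 0.0718). Stat6, the factor of interleukin 4 signalling, was not called (-0.14; limma adjusted p = 0.499). Exons of Stat4 overlap those of Gm28177 on the same strand, which leaves its level uncertain.

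**Figure D3:**
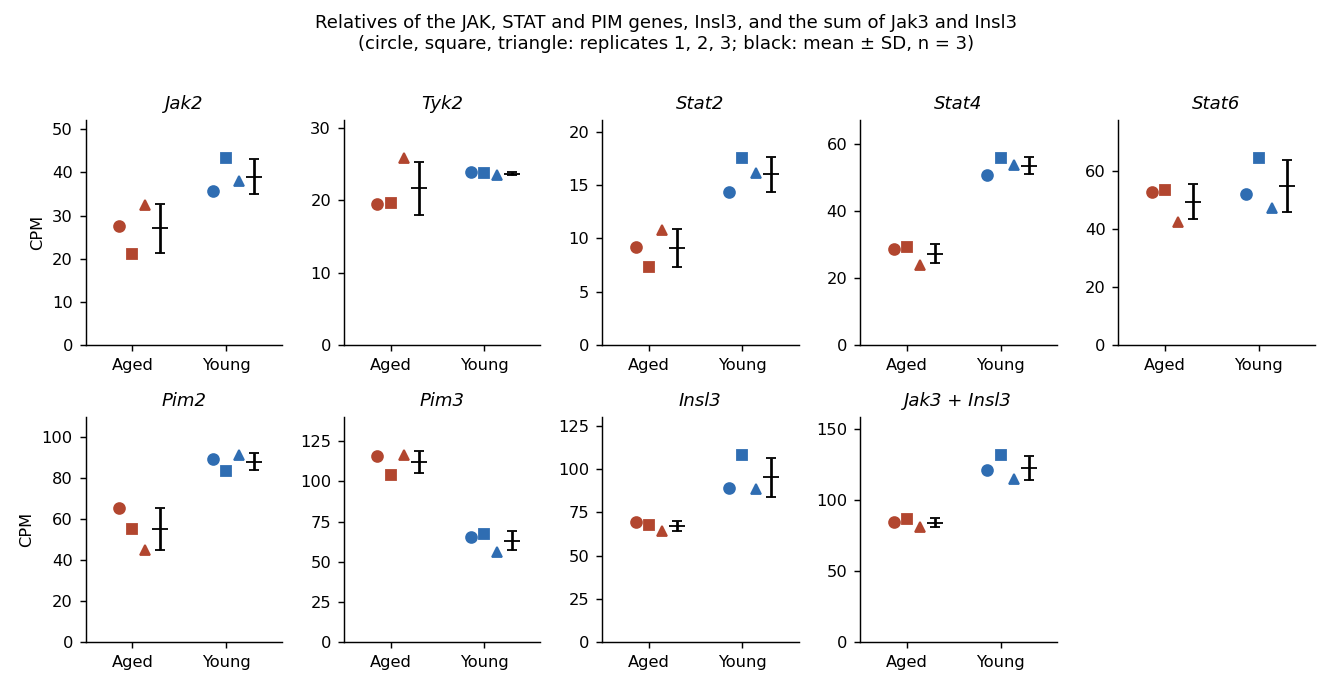
Level in CPM (vertical axes from 0) of Jak2, Tyk2, Stat2, Stat4, Stat6, Pim2 and Pim3, of Insl3 and of the sum of Jak3 and Insl3 in the 3 aged and 3 young libraries; points are libraries and black bars are mean ± SD. Aged libraries lie below young ones for Stat2, Stat4, Jak2, Pim2 and Insl3 and above them for Pim3.

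Of the feedback inhibitors, Cish, Socs1 and Socs3 rose and Socs2 was not called. Cish (ENSMUSG00000032578, chromosome 9, 107296026 to 107302784), which encodes CIS, an inhibitor that docks on activated cytokine receptors, was at 244, 249 and 226 CPM in Aged replicates 1, 2 and 3, against 192, 176 and 159 CPM in Young replicates 1, 2 and 3. Every aged library lay above every young one. The means were 240 ± 12.0 CPM in aged and 176 ± 16.5 CPM in young cells (SD, n = 3 each), a ratio of 1.36. The log2 difference of 0.45 ± 0.08 had a limma adjusted p of 0.000323, and Cish was called higher under all 17 alternatives, with values of 0.37 to 0.52.

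Socs1 (ENSMUSG00000038037, chromosome 16, 10782240 to 10785536), which encodes a direct inhibitor of JAK kinases, was at 144, 172 and 127 CPM in Aged replicates 1, 2 and 3, against 87.8, 84.4 and 128 CPM in Young replicates 1, 2 and 3. Young replicate 3, at 127.6 CPM, lay just above Aged replicate 3, at 126.6 CPM, so the groups overlapped by this 1 pair. The log2 difference was 0.57 ± 0.13 (limma adjusted p = 0.00285), a ratio of 1.48. It was called higher under all 17 alternatives, with values of 0.46 to 0.76, the highest without Young replicate 3.

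Socs3 (ENSMUSG00000053113, chromosome 11, 117966079 to 117970047), the inhibitor best known for limiting STAT3 downstream of interleukin 6 type receptors, was at 44.0, 49.5 and 32.0 CPM in Aged replicates 1, 2 and 3, against 27.8, 29.1 and 23.4 CPM in Young replicates 1, 2 and 3. The groups did not overlap, but Aged replicate 3 lay within 3 CPM of the highest young library. The log2 difference of 0.61 ± 0.17 was the highest of the 10 genes (limma adjusted p = 0.00883), a ratio of 1.56. Without Aged replicate 2, the highest library, it was 0.48 and not called (limma adjusted p = 0.0573).

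Socs2 (ENSMUSG00000020027, chromosome 10, 95385362 to 95417180), known for restraining growth hormone signalling and induced by STAT5, was at 171, 204 and 162 CPM in Aged replicates 1, 2 and 3, against 148, 146 and 193 CPM in Young replicates 1, 2 and 3. Young replicate 3 lay above 2 of the 3 aged libraries. The log2 difference was 0.14 ± 0.11, with a 95% interval of -0.08 to 0.36 (limma adjusted p = 0.340). Without Young replicate 3 it was 0.27 and was called (limma adjusted p = 0.0453). Without Aged replicate 2 it was 0.05 (limma adjusted p = 0.803), and without Young replicate 1 or 2 it was 0.08. Young replicate 3 was the highest young library for Socs1 and Socs2 and the lowest for Cish and Socs3.

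The other 4 members of the family, Socs4, Socs5, Socs6 and Socs7, were less abundant, at means of 5.25 to 41.9 CPM in aged and 4.17 to 35.9 CPM in young cells. Of the 4, 0 were called by limma, 0 by edgeR and 0 by DESeq2, and 0 had an unadjusted limma p under 0.05. Their log2 differences were 0.20 to 0.32, and limma called 28.7% of all tested genes. Summed over all 8 members, the family was at 717, 777 and 672 CPM in Aged replicates 1, 2 and 3, against 550, 533 and 596 CPM in Young replicates 1, 2 and 3, without overlap. Within this sum Cish held 33.3 ± 1.08% in aged and 31.6 ± 4.33% in young cells. Socs2 held 23.9 to 26.2% in aged and 26.9 to 32.3% in young libraries, the sole member of the family whose share did not overlap between the groups (24.8 ± 1.29% and 28.9 ± 2.98%; SD, n = 3 each; two-sided exact permutation p = 0.1). With 3 libraries a side this test has 20 splits and cannot give a smaller p than 0.1.

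Pim1 (ENSMUSG00000024014, chromosome 17, 29490753 to 29496112), a survival kinase that is active without an upstream activating kinase, was the most abundant of the 10. It was at 721, 727 and 687 CPM in Aged replicates 1, 2 and 3, against 714, 688 and 662 CPM in Young replicates 1, 2 and 3, and the groups overlapped. The log2 difference was 0.05 ± 0.06, with a 95% interval of -0.07 to 0.17 (limma adjusted p = 0.571), and its sign turned with TMM, RLE and upper-quartile scaling.

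The other PIM kinases, whose roles overlap with that of PIM1, moved in opposite directions around it. Pim2 was at 65.6, 55.2 and 44.7 CPM in Aged replicates 1, 2 and 3, against 89.1, 83.6 and 91.5 CPM in Young replicates 1, 2 and 3 (log2 difference -0.68; limma adjusted p = 0.000352). Pim3 was at 116, 104 and 117 CPM in Aged replicates 1, 2 and 3, against 65.6, 67.5 and 56.1 CPM in Young replicates 1, 2 and 3 (0.82; limma adjusted p = 6.94e-06). Neither gene's groups overlapped, and the ratio of Pim3 to Pim2, which no scaling changes, was 2.09 ± 0.456 in aged and 0.719 ± 0.0979 in young cells (SD, n = 3 each; two-sided exact permutation p = 0.1). The sum of the 3 PIM messages overlapped between the groups, at 849 to 902 CPM in aged and 810 to 869 CPM in young libraries. Pim1 made up 81.0 ± 1.05% of it in aged and 82.0 ± 0.204% in young cells.

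**Figure D4:**
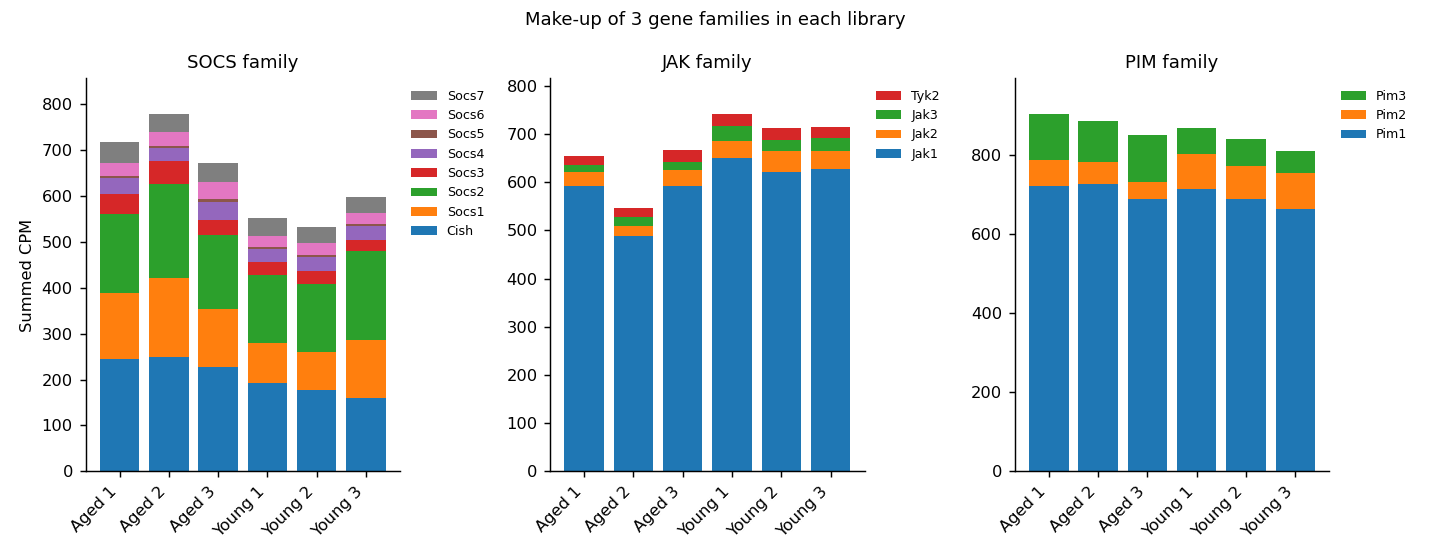
Stacked levels of the SOCS, JAK and PIM families in each library, in summed CPM from 0. The SOCS sum is 672 to 777 CPM in aged and 533 to 596 CPM in young libraries, the JAK sum (Insl3 left out) 547 to 667 CPM in aged and 712 to 741 CPM in young libraries, and the PIM sums overlap.

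In order of level in aged cells, Pim1 came first, then Jak1, Cish, Stat3, Socs2, Socs1, Socs3, Stat5b, Jak3 and Stat5a. The place of Jak3 in either group is uncertain, since it rests on the Jak3 row alone. The summed Jak3 and Insl3 rows, at means of 83.9 CPM in aged and 122 CPM in young cells, stood above Socs3 and Stat5b in both groups. The ranges of Cish and Stat3, of Stat3 and Socs2 and of Socs2 and Socs1 overlapped in aged cells. In young cells Stat3 stood above Cish without overlap, the ranges of Cish and Socs2 overlapped, and Stat5b, Jak3 and Socs3 overlapped at means of 27.4, 27.1 and 26.8 CPM. Stat5a was the lowest in both groups, with 33.9% of tested genes below it in aged and 32.4% in young cells, while Pim1 stood above 97.95% in aged and 97.96% in young cells.

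Upstream, of the 6 gamma chain cytokines, Il2 alone passed the filter, at 1.54, 4.22 and 8.0 CPM in Aged replicates 1, 2 and 3, against 4.35, 0.359 and 2.31 CPM in Young replicates 1, 2 and 3, values near the floor of a library (limma adjusted p = 0.279). Il7, Il9, Il15 and Il21 were at 0 in all 6 libraries. Of 8 receptor genes 7 were tested and 0 were called by limma, where 28.7% of all tested genes were called. The high-affinity subunit Il2ra was 750 ± 94.2 CPM in aged and 857 ± 61.7 CPM in young cells (log2 difference -0.20; limma adjusted p = 0.0565). The signalling subunit Il2rb was 1038 ± 46.5 CPM in aged and 1036 ± 12.3 CPM in young cells, and the gamma chain Il2rg 380 ± 16.7 CPM in aged and 413 ± 3.29 CPM in young cells (-0.12; limma adjusted p = 0.159; SD, n = 3 each). At an unadjusted p under 0.05 there were 3, Il2ra, Il4ra and Il7r, with log2 differences of -0.20, -0.17 and -0.37. The count of calls depended on the test: 4 were called lower with upper-quartile scaling (these 3 and Il2rg), 3 with TMM scaling (Il2ra, Il4ra and Il2rg), 2 with edgeR (Il2ra and Il4ra) and 1, Il2ra, with DESeq2. It also depended on single libraries. Without Aged replicate 2, Il2ra (-0.30, limma adjusted p = 0.00215) and Il7r (-0.58, limma adjusted p = 0.00172) were called lower. Without Aged replicate 3 their differences were -0.13 and -0.17, and without Young replicate 3 they were -0.14 and -0.18, with neither gene called. Exons of Il2rg overlap those of Gm20489 on the same strand, which leaves its level uncertain. Il21r and Il15ra had differences of 0.08 and 0.22 (limma adjusted p = 0.495 and 0.761).

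Of 11 listed receptor genes that signal through other JAK and STAT pairs, 10 were tested, 4 fell, 0 rose and 6 were not called. Of all tested genes 12.5% were called lower and 16.2% higher. The median log2 difference of the list was -0.51, against 0.03 over all tested genes. The interferon gamma receptor chain Ifngr1 was 183 ± 7.79 CPM in aged and 311 ± 11.9 CPM in young cells (-0.77; limma adjusted p = 2.13e-07). The type I interferon receptor chain Ifnar2, whose exons overlap those of Gm21970 on the same strand, was 32.5 ± 3.36 CPM in aged and 64.1 ± 7.41 CPM in young cells (-0.96; limma adjusted p = 1.9e-05), and the interleukin 10 receptor chain Il10ra 11.1 ± 2.44 CPM in aged and 24.1 ± 4.49 CPM in young cells (-1.06; limma adjusted p = 0.000994; SD, n = 3 each). Il12rb2, a chain of the interleukin 12 receptor, had a difference of -0.44 (limma adjusted p = 0.0425) that was lost with DESeq2 (adjusted p = 0.0725), with no filter on low values (adjusted p = 0.0506) and without any one of Aged replicates 1 and 2 and Young replicates 1 and 3 (-0.47, -0.35, -0.43 and -0.28).

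The CIS and SOCS proteins recruit a ubiquitin ligase through their SOCS box. Of its 6 listed subunits 1 rose, Eloc, which encodes elongin C and was 137 ± 11.8 CPM in aged and 95.6 ± 3.99 CPM in young cells (0.51; limma adjusted p = 0.00027). Its partner Elob was 417 ± 2.67 CPM in aged and 463 ± 9.25 CPM in young cells (-0.15; limma adjusted p = 0.0658; SD, n = 3 each), and was called lower with TMM scaling (-0.20, adjusted p = 0.0183), with edgeR (adjusted p = 0.0188) and with DESeq2 (adjusted p = 0.0379). The other 4 subunits were not called. Of all tested genes, 16.2% were called higher and 12.5% lower.

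Among 15 phosphatases and other inhibitors of the pathway, all tested, 2 fell, 0 rose and 13 were not called, with a median of -0.02. Beside this, 12.5% of all tested genes were called lower and 16.2% higher. The genes that fell were Ptprc, which encodes the phosphatase CD45 (1150 ± 77.2 CPM in aged and 1396 ± 60.4 CPM in young cells; -0.28; limma adjusted p = 0.000939), and Ptpn6, which encodes SHP-1 (43.9 ± 10.2 CPM in aged and 66.8 ± 5.14 CPM in young cells; -0.62; limma adjusted p = 0.00335; SD, n = 3 each). Exons of Ptpn6 overlap Gm20531 on the opposite strand. Pias4 and Ptpn11 had differences of 0.34 and 0.22 and were not called (limma adjusted p = 0.0875 and 0.223), but Ptpn11 was called higher without Aged replicate 2 (0.37, limma adjusted p = 0.0403).

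The list of PIM kinases besides Pim1 and of their substrates had 2 of 7 tested genes higher and 4 lower. The shares of all tested genes were 16.2% higher and 12.5% lower. Cdc25a, a phosphatase that PIM kinases activate, was 73.4 ± 5.42 CPM in aged and 40.4 ± 4.16 CPM in young cells (0.85; limma adjusted p = 2.6e-05). The cell cycle inhibitors Cdkn1a and Cdkn1b, which PIM kinases phosphorylate, fell by 0.52 and 1.04 on the log2 scale (limma adjusted p = 4.97e-07 and 2.76e-07), and Foxo3 by 0.72 (limma adjusted p = 0.00145).

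Other genes known to be induced by STAT5 moved in both directions. Of 20 tested, 5 rose, 5 fell and 10 were not called, with a median log2 difference of -0.0025. Among all tested genes 16.2% were called higher and 12.5% lower. Osm, a cytokine gene that is a classic STAT5 target like Cish, was at 30.7, 38.0 and 30.6 CPM in Aged replicates 1, 2 and 3, against 22.2, 19.4 and 23.1 CPM in Young replicates 1, 2 and 3 (0.59; limma adjusted p = 0.00849), and was not called with DESeq2 (adjusted p = 0.0755) or without Aged replicate 2 (0.49, limma adjusted p = 0.0541). Gzmb, the main killer granzyme, was 5500 ± 695 CPM in aged and 3865 ± 27.9 CPM in young cells (0.50; limma adjusted p = 9.24e-06; SD, n = 3 each). Those that fell were Ccnd2 and Ccnd3, cyclins of the G1 phase (-0.45 and -0.31; limma adjusted p = 1.62e-06 and 0.000587), the lymphotoxin gene Lta (-1.23; limma adjusted p = 1.57e-05), the terminal differentiation factor Prdm1 (-1.04; limma adjusted p = 2.53e-06) and Bcl2 (-0.24; limma adjusted p = 0.0036). The 5 higher calls were 3 with upper-quartile scaling, 1 with DESeq2, 2 without Aged replicate 2, and 3 without Aged replicate 3 or without Young replicate 3. The 5 lower calls were 8 with upper-quartile scaling.

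Of 6 genes that STAT5 is known to repress, 5 fell and 0 rose, with a median of -2.41. Here too 12.5% of all tested genes were called lower and 16.2% higher. Among those that fell were Bcl6 and Klf2, Ccr7 and Tcf7, the last 3 being genes of resting and memory T cells. The aged means of Klf2, Tcf7 and Bcl6 were 1.94, 1.04 and 0.925 CPM, near the floor of a library. Bcl6 (-1.18; limma adjusted p = 0.0348) was not called with DESeq2 (adjusted p = 0.146), with a pseudocount of 0.1 (adjusted p = 0.0527) or without any one of 5 libraries, all but Aged replicate 1, with values of -1.32 to -1.01. Il7r was not called (-0.37; limma adjusted p = 0.0885), but was called lower with upper-quartile scaling (adjusted p = 0.0367) and without Aged replicate 2, as given among the receptors. Of 10 genes induced by STAT3, 7 were tested, 2 rose and 3 fell, where 16.2% of all tested genes rose and 12.5% fell. Il10 was at 46.1, 59.4 and 24.9 CPM in Aged replicates 1, 2 and 3, against 21.7, 20.8 and 20.7 CPM in Young replicates 1, 2 and 3 (0.92; limma adjusted p = 0.0034), and Fosl2 rose by 0.50, while Junb (-0.62), Irf4 (-0.80) and Bcl3 (-0.30) fell. Bcl3 was not called with DESeq2 (adjusted p = 0.0776), without Aged replicate 2 (-0.23, limma adjusted p = 0.154) or without any one of the young libraries (-0.31 to -0.29).

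**Figure D5:**
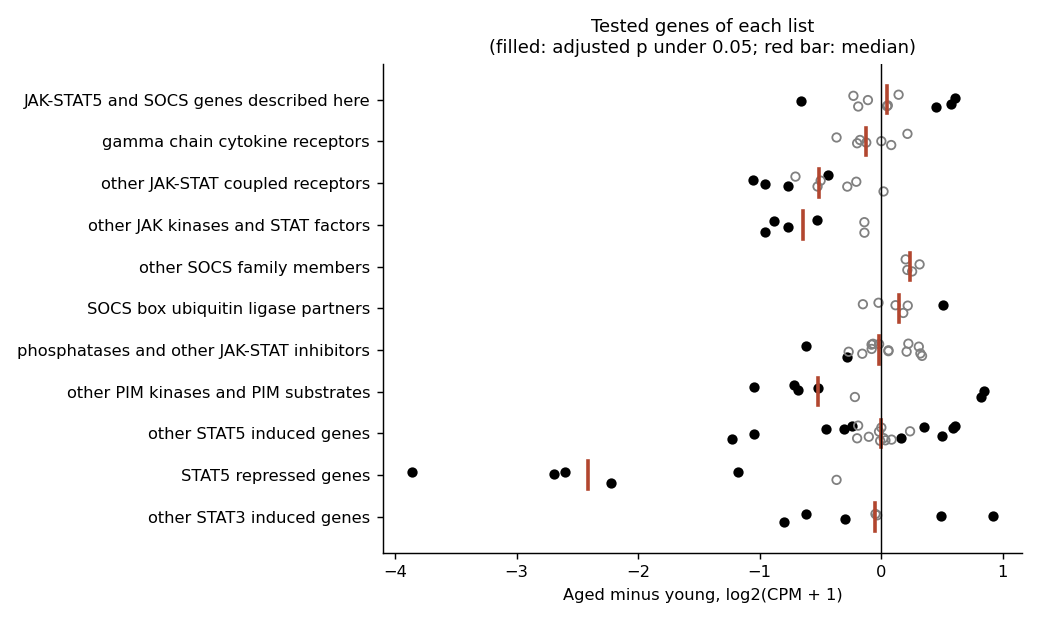
Aged minus young log2 difference (horizontal axis, log2(CPM + 1) scale) of the tested genes of each list; filled points are called, open points are not, and red bars are list medians. The gamma chain cytokines, with Il2 as the 1 tested gene, are not drawn. Medians of the lists drawn run from -2.41 for genes repressed by STAT5 to 0.24 for the other SOCS genes.

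The genes most like the 2 extremes of the set were found by Pearson correlation of log2(CPM + 1) over the 6 libraries, among the 5559 tested genes that averaged 20 CPM or more. For Socs3, the member with the highest difference, they were Ccdc34 (r = 0.989), Prep (r = 0.984) and Ubl4a (r = 0.979). For Jak3, the lowest, they were Mtmr3 (r = 0.994), Irf4 (r = 0.988) and Acbd5 (r = 0.988). These values are a description over 6 libraries that all 5559 genes share, picked as the highest of them.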

How the data were processed

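For every library the authors deposited CPM values (reads per 1000000) of 25655 Ensembl identifiers, of which 1 is blank. All values (100%, within 0.001 reads) are whole multiples of what 1 read is worth, so whole reads were recovered; on these, edgeR called 1443 genes higher and 1557 lower. Libraries were made with the QuantSeq 3' kit, per the labels' protocols, and per the submitters' processing notes the genome build is GRCm38, also named mm10. Which aligner and counter were used, and whether strand was used, is not given in the sources used here. Symbols were found for 25599 identifiers. The file of Aged replicate 2 has a column headed replicate 3; it was assigned by GEO's link between file and sample, to replicate 2.

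The main test was limma 3.58.1 (R 4.3.3) with an intensity trend on log2(CPM + 1), two-sided, age group as the sole term, Benjamini-Hochberg over the 10511 genes whose mean reached 1 CPM. It was tested on simulated data. Alternatives were TMM, RLE and upper-quartile scaling, no filter or a filter at 5 CPM, pseudocounts of 0.1 and 5, tests of the recovered reads by edgeR 4.0.16, limma-voom and DESeq2 1.42.0, a block for replicate number, and leaving out each library. The 10 genes and all lists were chosen with earlier results of these data known. Named genes were the 10, up to 4 of each list by smallest p, the tested gamma chain receptors, the most abundant marker of other cells and the 3 genes most like each extreme; others are examples chosen after their values were seen. Coordinates and exon overlaps are from GENCODE M21. Where strand was ignored, Cish, Jak1, Pim1, Stat3 and Stat5a could hold reads of genes on the opposite strand. PCR reads without molecular identifiers are not independent molecules, so floors cover counting error only. Replicates within a group differed by 1.72 to 2.9 times counting noise (chi-square per degree of freedom). Some listed genes, and shares that rest on them, are not reported here.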

Additional observations from a re-analysis of the deposited data

How the results depend on the processing

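Cish and Socs1 stayed called higher, and the summed Jak3 and Insl3 rows lower, under all 17 alternatives. Socs3 and Jak3 kept their calls in 16 of 17, and Jak1, not called in the main test, was called lower in 11 of 17. The count of the 10 genes called lower, 1 in the main test, was 2 under each other scaling (TMM, RLE, upper-quartile), a filter at 5 CPM, pseudocount 5, edgeR, DESeq2 and limma-voom, and 0 to 2 when a library was left out; the count called higher was 2 to 4. Over all genes, 1701 were called higher and 1313 lower; DESeq2 called 944 higher and 1014 lower, and TMM scaling 1428 and 1554, which turns the balance of directions. Leaving out a library gave 1322 to 1582 higher and 1011 to 1207 lower. Same-numbered libraries showed little shared deviation (r = 0.0209, 0.00025 and 0.0028), and pairs of unlike number had r of -0.0259 to 0.0242. With 3 libraries a side these values cannot exclude that libraries were handled in numbered pairs. With the replicate block 1725 genes were called higher and 1336 lower. Of the 10 genes 3 were then called higher and 2 lower, Jak1 being added. Signs turned for 4 genes that were not called. Pim1 was -0.0050 with TMM, -0.00033 with RLE and -0.034 with upper-quartile scaling, -0.0049 with edgeR and -0.0035 with limma-voom. Stat5a was -0.020 with upper-quartile scaling and -0.023 with limma-voom, and ran from -0.064 (without Aged replicate 1) to 0.237 (without Aged replicate 2) with a library left out, at -0.0070 without Aged replicate 3. Il2rb was -0.051 with TMM, -0.047 with RLE and -0.081 with upper-quartile scaling, -0.051 with edgeR, -0.046 with DESeq2 and -0.051 with limma-voom, and ran from -0.027 (without Aged replicate 3) to 0.037 (without Aged replicate 1) with a library left out. Il15ra ran from -0.043 (without Aged replicate 2) to 0.615 (without Aged replicate 3). The cause of these changes was not tested. Of the 10 genes Stat5a had the fewest reads, 22 to 29 a library, which limits its precision; Il2 and Il15ra, outside the 10, lie lower still.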
